A study of Mus musculus with 7 samples.

Results

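The 10 genes Bcl2, Bcl2l1, Mcl1, Bcl2l11, Bmf, Bad, Bid, Bax, Bnip3 and Bnip3l belong to the Bcl2 family or act beside it in mitochondrial cell death and in anoikis, the death of epithelial cells that lose contact with the matrix. Every probe of the arrays whose transcript accession maps to 1 of these genes was taken, which gave 18 probes, printed in 45 spots per array, of the 41174 probes measured. Of the 18 probes, 15 could be tested and 3 could not, 1 Bmf probe for its low signal and 1 probe each of Bmf and Bnip3 because outlier spots left too few values. Expression was measured in mouse prostate RNA on 7 Agilent arrays with 2 colours, each array holding 1 prostate sample against the same universal mouse reference RNA. The 3 PB-NICD samples came from ARR2PB-Cre;ROSA(N1IC) mice, in which a Cre recombinase under the prostate promoter ARR2PB turns on a Notch1 intracellular domain placed in the ROSA locus. Per the labels, these mice develop prostatic intraepithelial neoplasia, a precancerous growth of the prostate epithelium. The 4 control samples were taken from ROSA(N1IC) animals, called wild type in the labels. All mice were of C57Bl/6 background. Age, prostate lobe and whether animals were pooled are not stated by the labels, nor whether each sample is a separate animal. The p-values therefore measure the spread between these samples, which may be technical in part.

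Proteins of the Bcl2 family decide whether the outer mitochondrial membrane is opened, which releases cytochrome c and starts the caspases. The guardians Bcl2, Bcl2l1 (Bcl-xL) and Mcl1 hold the membrane closed, the effector Bax opens it, and the BH3-only proteins Bcl2l11 (Bim), Bmf, Bad and Bid carry death signals by binding guardians or effectors. Bim and Bmf are held on the cytoskeleton and are known for their release when epithelial cells detach, and so for their part in anoikis. Bnip3 and Bnip3l (Nix) sit on mitochondria and mark them for removal by autophagy, and Bnip3 is a classic target of hypoxia. Setting PB-NICD against control asks which of these genes differ in prostates where Notch1 signalling is switched on.

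Some facts of the arrays bear on the values. A value is the log2 ratio of prostate signal over reference signal, and a change is the mean of these ratios in PB-NICD less that in control. The sample channel was well above background for 53.7% to 67.2% of probe spots on the PB-NICD arrays and for 45.3% to 61.1% on the control arrays. Its median signal was 88 to 107 on the PB-NICD arrays and 69 to 87.5 on the control arrays. PB-NICD 1, control 1 and control 2 lay on slide 1, and PB-NICD 2, PB-NICD 3, control 3 and control 4 on slide 2. Notch1, the gene of the introduced domain, stood at 2.63 (PB-NICD 2) and 2.74 (PB-NICD 3), against 0.05, 0.30, 0.84 and 0.67 in the controls in order of number. Its spot on PB-NICD 1 was an outlier in the software's marking, so it was dropped from the test, and it read 2.48 when kept. Notch1 changed by 2.22 ± 0.21 (log2, SE; limma, adjusted p = 0.000349). Whether its probe lies in the introduced part of the gene is not stated in the files. Of the epithelial markers, Tmprss2 stood at a mean of 3.66 in PB-NICD and 4.98 in control, and Epcam at 3.14 in PB-NICD and 2.98 in control. Tmprss2 was called lower in PB-NICD, and these genes do not give the state of the other luminal markers.

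The scaling matters for some probes. Loess sets the ratios of equally bright probes level within an array. Median centring, which moves all ratios of an array by 1 amount, turned the median change of all probes to 0.25. A change under median centring is therefore also given after this median is taken off, while its p-value tests the whole change against 0.

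PB-NICD 1, and control 3 to a lesser degree, stand apart in 1 step of the processing. The results that rest on PB-NICD 1 are given both ways. The background model was set on spots whose local background was not marked as an outlier. On PB-NICD 1, 6 spots lay more than 20 units below their own background, the lowest at -47741. With all spots, they raised the model's noise in the sample channel to 344 units. It was 1.60 units on clean spots and 1.87 units when those 6 spots alone were dropped. Control 3 had 3 such spots, the lowest at -490.5. Its noise was 12.1 units with all spots, 1.27 units on clean spots and 1.52 units when those 3 spots alone were dropped. With all spots PB-NICD 1 correlated with PB-NICD 2 and PB-NICD 3 at 0.818 for both, in place of 0.944 and 0.941, across 13648 probes, which are not independent replicates. Notch1 on PB-NICD 1 then read 0.64, within the range of the controls. With all spots 493 of all probes tested were called, in place of 1746, and of the 10 genes Bnip3l alone kept a called probe. That Bnip3l probe had no value on PB-NICD 1 or control 3, so this alternative hardly altered its values. Its kept call therefore does not show that it withstands the choice.

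**Figure D1:**
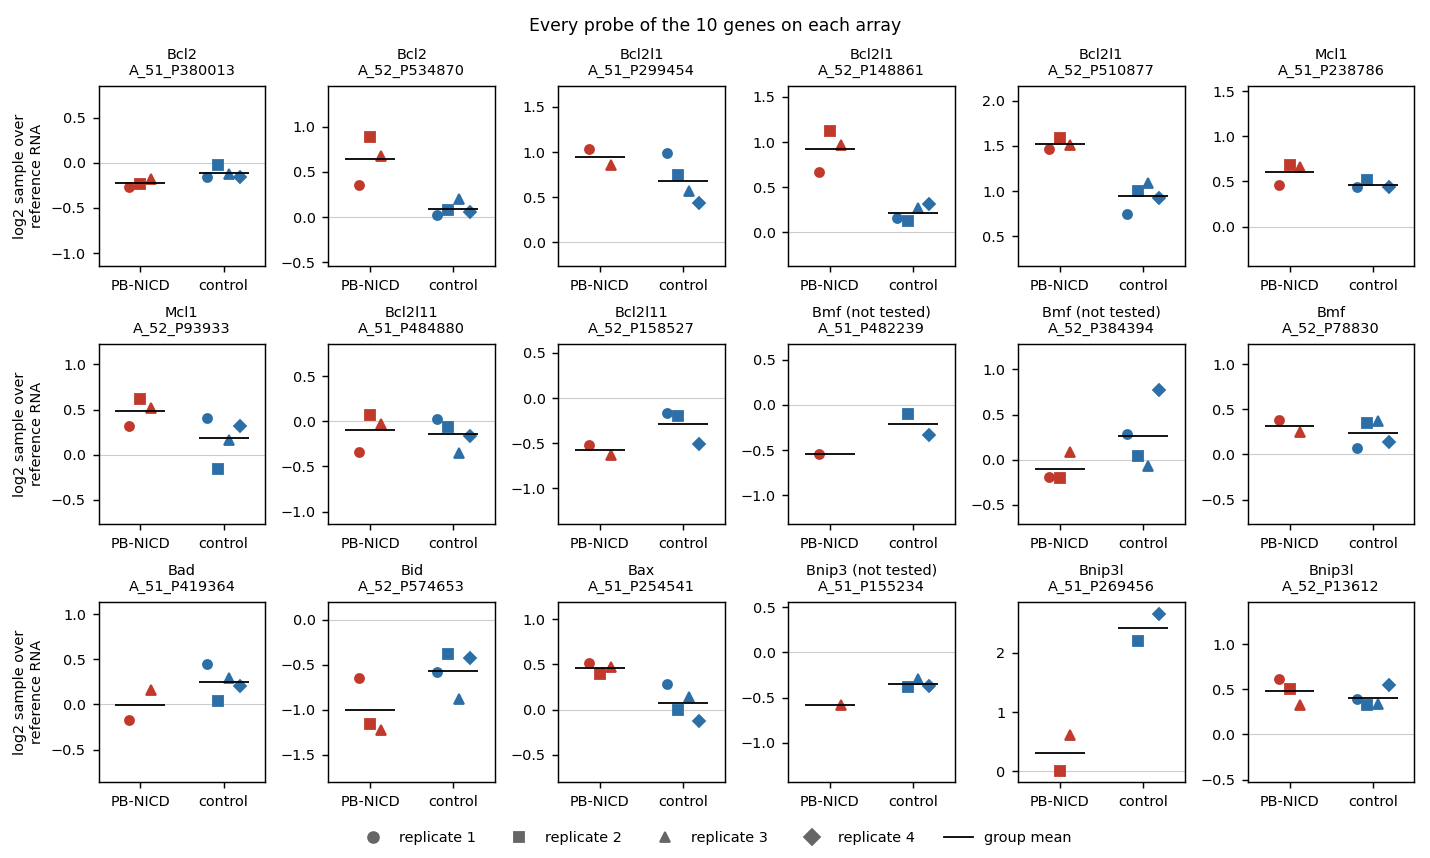
Log2 ratio of prostate sample over reference RNA (vertical axis) for each of the 18 probes of the 10 genes, 1 panel a probe, PB-NICD arrays in red on the left and control arrays in blue on the right. Marker shapes give the replicate number, bars the group means, and missing markers are spots left out as outliers. The groups do not overlap for 7 tested probes, those of Bax, both of Bcl2, 2 of Bcl2l1, 1 of Bcl2l11 and, by the widest gap, 1 of Bnip3l.

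Among the 10 genes, 2 of the 3 probes of Bcl2l1 and 1 of the 2 probes of Bcl2 were called higher in PB-NICD, and 1 of the 2 probes of Bnip3l was called lower. The other Bcl2 probe, which was brighter, changed by -0.11 and was not called. In all, 4 of 15 tested probes passed an adjusted p of 0.05, 3 of them higher in PB-NICD and 1 lower, in a comparison where 8.36% of all 20895 tested probes passed, 3.66% higher and 4.69% lower. By gene, 3 of 9 tested genes had a called probe, 2 higher and 1 lower, against 10.9% of the 11651 named genes tested, 4.61% higher and 6.33% lower. A gene counted here if any of its probes passed, so a gene with several probes had more chances, and 5 of the 9 genes had several tested probes. The groups did not overlap for 7 of the 15 probes, 4 higher and 3 lower in PB-NICD, while they did not overlap for 25.2% of all tested probes, 10.7% higher and 14.5% lower. The median change of the 15 probes was 0.09, beside -0.02 for all probes tested, and it turned to -0.11 over 9 probes when each gene was read by its brightest probe alone. Of the 3 probes called higher, 1 of Bcl2l1 and 1 of Bcl2 were well above background on 3 arrays or more only with the PB-NICD arrays counted, so they passed the filter through the group where they were high, and the counts above do not support a direction on their own. All p-values are two-sided, from limma, adjusted by Benjamini-Hochberg over all tested probes. In RNA of whole tissue, fewer cells of a type and less RNA per cell cannot be told apart.

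Bcl2l1 encodes Bcl-xL, a guardian that epithelial cells use to stay alive without matrix contact. Its probe A_52_P148861, printed in 10 spots per array, read 0.67, 1.12 and 0.97 in PB-NICD 1 to 3, against 0.16, 0.13, 0.27 and 0.31 in control 1 to 4. All PB-NICD arrays lay above all controls, PB-NICD 1 being the lowest of its group. The change was 0.70 ± 0.13 (SE, adjusted p = 0.00797). The probe was dim, in the dimmest of 5 equal classes of sample signal, and was well above background on 3 PB-NICD arrays and on 1 control array, so that it was tested through the group where it was high and the control level lay near background. Its median sample signal was 88.5 to 118 in PB-NICD and 64.75 to 76.5 in control, over a local background of 52.75 to 54.75 in PB-NICD and 54.25 to 56.25 in control. Under median centring the change was 0.15, which is -0.10 against the median of all probes, without a call (adjusted p = 0.437). On slide 1, which held a single PB-NICD array that was assumed to vary like the controls, the change was 0.52 (adjusted p = 0.175). On slide 2 alone it was 0.75 (adjusted p = 0.0226), and with PB-NICD 1 left out it was 0.83. With background parameters from all spots PB-NICD 1 read 0.07 and the change was 0.51 (adjusted p = 0.353).

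A brighter Bcl2l1 probe, A_52_P510877, read 1.47, 1.59 and 1.51 in PB-NICD, against 0.75, 1.00, 1.09 and 0.93 in control. Again the groups did not overlap, and the PB-NICD arrays lay close to each other (SD 0.06, n = 3) while the controls spread more (SD 0.14, n = 4). The change was 0.58 ± 0.11 (adjusted p = 0.0119). Slide 1 alone gave 0.59 (adjusted p = 0.146) and slide 2 alone gave 0.54 (adjusted p = 0.0835), neither of them called. The call was also lost on leaving out PB-NICD 2 (0.55, adjusted p = 0.0581) and with parameters from all spots (0.37, adjusted p = 0.455), and it was kept at 0.61 on leaving out PB-NICD 1. Under median centring the change was 1.11 (adjusted p = 0.00483), which is 0.86 against the median of all probes.

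The third Bcl2l1 probe, A_51_P299454, read 1.04 (PB-NICD 1) and 0.86 (PB-NICD 3), with PB-NICD 2 left out, against 0.99, 0.74, 0.57 and 0.43 in control. Here the groups overlapped through control 1, and the change of 0.27 (95% interval -0.11 to 0.65) did not pass (adjusted p = 0.416). Under median centring it passed at 0.83 (adjusted p = 0.0109), which is 0.58 against the median of all probes. All 3 probes cite the same transcript, NM_009743, and their positions in it are not given in the files.

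Bcl2, the founding guardian of the family, was read by probes that cite different transcripts. Probe A_52_P534870, which cites NM_009741 and is printed in 10 spots, read 0.35, 0.89 and 0.68 in PB-NICD, against 0.02, 0.07, 0.21 and 0.05 in control. The PB-NICD arrays were above all controls but differed among themselves (SD 0.27, n = 3), PB-NICD 1 being the lowest. The change was 0.55 ± 0.14 (adjusted p = 0.0345). This probe too was in the dimmest class and was well above background on 3 PB-NICD arrays and 2 control arrays, so that it too was tested through the group where it was high. Under median centring the change was 0.14 (adjusted p = 0.519), which is -0.11 against the median of all probes. Slide 1 alone gave 0.31, not called (adjusted p = 0.492), and slide 2 alone gave 0.66, which passed (adjusted p = 0.0481).

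The call of this Bcl2 probe was close to the threshold. Leaving out PB-NICD 2 gave 0.43 (adjusted p = 0.140) and leaving out PB-NICD 3 gave 0.53 (adjusted p = 0.0986), both without a call. The same held for the controls: 0.53 with control 1 removed (adjusted p = 0.0797), 0.55 with control 2 removed (adjusted p = 0.0731) and 0.54 with control 4 removed (adjusted p = 0.0736). Without PB-NICD 1 the change was 0.70 and was called, and with parameters from all spots it was 0.46 (adjusted p = 0.313).

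Probe A_51_P380013, which cites NM_177410, read -0.27, -0.23 and -0.18 in PB-NICD, against -0.16, -0.02, -0.12 and -0.15 in control. The groups stood apart by a small gap in the other direction, and the change of -0.11 (95% interval -0.33 to 0.11) did not pass (adjusted p = 0.585). It was among the brightest probes, with a reference signal of 113616 to 158593 units in PB-NICD and 125007 to 139724 in control. Its sign depended on the scaling, with 0.70 under median centring (adjusted p = 0.0323), which is 0.45 against the median of all probes, 0.065 with the software's processed signals and 0.20 in the sample channel alone. The Bcl2 probes thus gave different answers.

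**Figure D2:**
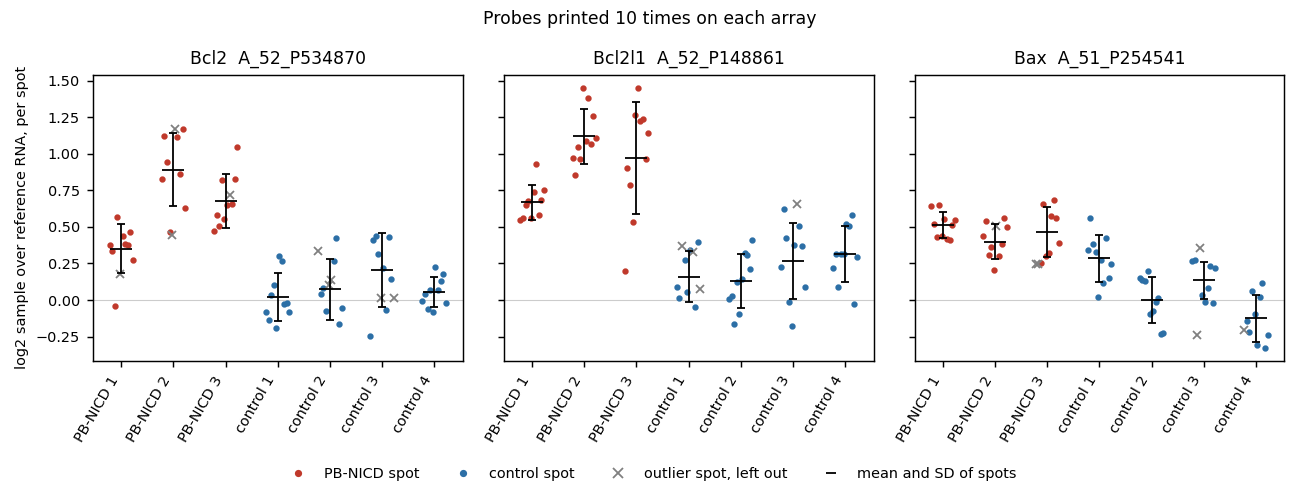
Log2 ratio of every spot (vertical axis) of the 3 probes printed 10 times, for Bcl2, Bcl2l1 and Bax, on the 3 PB-NICD arrays (red) and the 4 control arrays (blue). Bars give the mean and SD of the spots used and crosses the outlier spots left out. For Bcl2l1 the mean of each PB-NICD array lies above that of each control array, while single spots of the groups overlap.

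The repeated spots show the precision within an array. For Bcl2l1 A_52_P148861 the SD between spots was 0.12 to 0.38 per array, for Bcl2 A_52_P534870 it was 0.10 to 0.25 and for Bax 0.09 to 0.17, with at least 7 spots used on every array. Spots of 1 array share a hybridisation and were averaged before the test.

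Mcl1, the guardian with the shortest life in the cell, did not pass by either probe under loess. Probe A_51_P238786 read 0.46, 0.69 and 0.66 in PB-NICD, against 0.44, 0.52 and 0.43 on control 1, control 2 and control 4. PB-NICD 2 and PB-NICD 3 lay above these controls and PB-NICD 1 among them, and the change was 0.14 (95% interval -0.13 to 0.41, adjusted p = 0.570). Under median centring it passed at 0.93 (adjusted p = 0.00872), which is 0.68 against the median of all probes. Probe A_52_P93933 read 0.32, 0.61 and 0.51 in PB-NICD, against 0.41, -0.16, 0.16 and 0.32 in control. Its change of 0.30 (95% interval -0.03 to 0.63) did not pass (adjusted p = 0.286), and control 2 lay well below the rest.

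Of the BH3-only genes, none had a called probe. Bid, whose protein links death receptors to mitochondria, came nearest. It read -0.64, -1.15 and -1.22 in PB-NICD, against -0.58, -0.39, -0.88 and -0.42 in control. PB-NICD 2 and PB-NICD 3 lay below all controls and PB-NICD 1 among them. The change of -0.44 had an unadjusted p of 0.0277 and an adjusted p of 0.160, and without PB-NICD 1 it was -0.62. The probe was dim, with a sample signal of 76 to 90 in PB-NICD and 62 to 89 in control. Its local background was 46 to 49 in PB-NICD and 50 to 57 in control. It was well above background on 3 PB-NICD arrays and 2 control arrays. After background correction and loess its mean log2 sample signal was 7.66 in PB-NICD and 7.67 in control.

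Bcl2l11 encodes Bim, the BH3-only protein most tied to detachment in epithelia. Its probe A_52_P158527 read -0.52 (PB-NICD 1) and -0.63 (PB-NICD 3), against -0.17, -0.19 and -0.51 on control 1, control 2 and control 4. The groups did not overlap, though control 4 lay next to PB-NICD 1, and the change of -0.28 (95% interval -0.64 to 0.07) did not pass (adjusted p = 0.345). The outlier spots kept read -0.55 on PB-NICD 2 and -0.27 on control 3. The other probe, A_51_P484880, read -0.34, 0.07 and -0.04 in PB-NICD, against 0.02, -0.06, -0.35 and -0.17 in control, a full overlap with a change of 0.04 (adjusted p = 0.909).

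Bmf, which dynein light chains hold on the actin cytoskeleton, had a single tested probe, A_52_P78830, which was dim and read 0.38 (PB-NICD 1) and 0.25 (PB-NICD 3), against 0.07, 0.35, 0.37 and 0.14 in control. The groups overlapped and the change was 0.09 (95% interval -0.23 to 0.40, adjusted p = 0.784). The 2 other Bmf probes were not tested. A_52_P384394 was well above background on 1 PB-NICD array and 1 control array and read -0.19, -0.20 and 0.09 in PB-NICD, against 0.28, 0.05, -0.07 and 0.77 in control. A_51_P482239 was bright enough, with a sample signal of up to 2820.5 in PB-NICD and 666 to 1946 in control, but outlier spots left a value on PB-NICD 1 (-0.55), against control 2 and control 4 (-0.10 and -0.33). With those spots kept it read -0.55, -0.67 and -0.23 in PB-NICD, against -0.31, -0.10, -0.27 and -0.33 in control, where the groups overlapped.

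Bad, which survival kinases keep inactive by phosphorylation, read -0.17 (PB-NICD 1) and 0.15 (PB-NICD 3), against 0.44, 0.03, 0.30 and 0.21 in control. PB-NICD 1 lay below all controls and PB-NICD 3 among them, and the change of -0.25 (95% interval -0.61 to 0.10) did not pass (adjusted p = 0.403).

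Bax, the effector that forms pores in the outer membrane, read 0.51, 0.40 and 0.47 in PB-NICD, against 0.28, -0.0010, 0.13 and -0.13 in control, by a probe of 10 spots. The PB-NICD arrays lay together above all controls, of which control 1 was the highest. The change of 0.39 (95% interval 0.12 to 0.66) did not pass over all probes (unadjusted p = 0.00992, adjusted p = 0.0857). It was called in 3 of 25 alternatives, and its adjusted p reached 0.530 in the others. The slides taken singly gave 0.37 (slide 1) and 0.43 (slide 2), and a fit with the slide as a fixed term passed at 0.41 (adjusted p = 0.0487). It also passed in the authors' deposited table of log2 values, tested in the same way (0.41, adjusted p = 0.0163), and under median centring (0.94, adjusted p = 0.00456, which is 0.69 against the median of all probes), and these 3 settings called 2635, 4180 and 5132 of all probes, against 1746. With parameters from all spots PB-NICD 1 read 0.11, within the controls, and the change was 0.25.

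**Figure D3:**
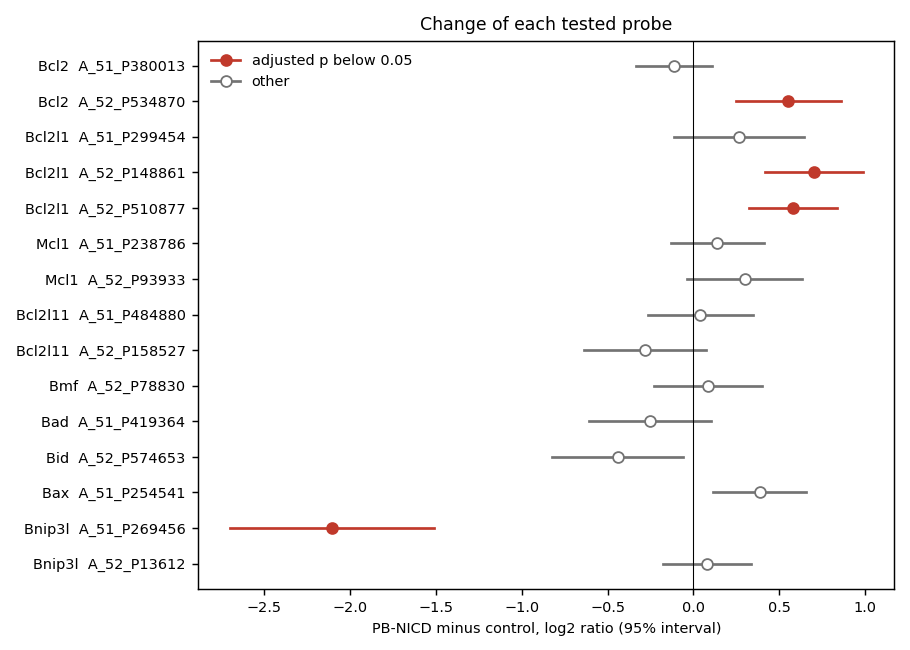
Change of each of the 15 tested probes, PB-NICD minus control in log2 ratio (horizontal axis), with its 95% interval from limma. Filled points passed an adjusted p of 0.05, which were 2 Bcl2l1 probes at 0.70 and 0.58, 1 Bcl2 probe at 0.55 and 1 Bnip3l probe at -2.11.

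Bnip3l, the receptor through which mitochondria are handed to autophagy, had the largest difference of the 15 tested probes, and its probes disagreed. Probe A_51_P269456 read 0.02 (PB-NICD 2) and 0.62 (PB-NICD 3), against 2.19 (control 2) and 2.66 (control 4). The spots of the other 3 arrays were marked as outliers and left out. The change was -2.11 ± 0.25 (adjusted p = 0.00303), from 2 arrays in each group. With these spots kept, PB-NICD 1 read -0.08, against 1.84 on control 1 and 2.17 on control 3, so that all PB-NICD arrays lay below all controls, and the change was -2.03 (adjusted p = 0.000242).

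The same probe was called under each of the 20 alternatives that gave it a value, with changes from -2.34 to -1.18. In 7 of these the change was the same to every digit, since the alternative altered none of its values. Leaving out PB-NICD 2, PB-NICD 3, control 2 or control 4 leaves 1 array in a group, and no test was made then. On slide 2, with 1 control array that was assumed to vary like the others, the change was -2.34 (adjusted p = 0.00270), and slide 1 had no PB-NICD value. Its signals were high, 12813 and 15720 units in these PB-NICD samples and 14949 and 36955 units in these controls. Among all probes in the brightest class 12.4% were called lower and 2.97% higher, while in the dimmest class 0.646% were called lower and 3.69% higher. The part of brightness in the Bcl2l1, Bcl2 and Bnip3l results was not tested.

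The second Bnip3l probe, A_52_P13612, read 0.61, 0.51 and 0.33 in PB-NICD, against 0.39, 0.32, 0.34 and 0.55 in control. The groups overlapped, and the change of 0.08 (95% interval -0.18 to 0.34, adjusted p = 0.747) excludes at that level a difference as large as that of the first probe. Under median centring it passed at 0.43 (adjusted p = 0.0420), which is 0.18 against the median of all probes and opposite in sign to the first probe. Both probes cite NM_009761, and which of them reads the Bnip3l transcript in prostate cannot be told from the files.

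Bnip3, its close relative, could not be tested, since the spots of PB-NICD 1, PB-NICD 2 and control 1 were left out. Its probe read -0.58 in PB-NICD 3, against -0.39, -0.30 and -0.37 in control 2 to 4. With outlier spots kept it read -0.55, -0.25 and -0.58 in PB-NICD, against -0.22, -0.39, -0.30 and -0.37 in control, where the groups overlapped.

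**Figure D4:**
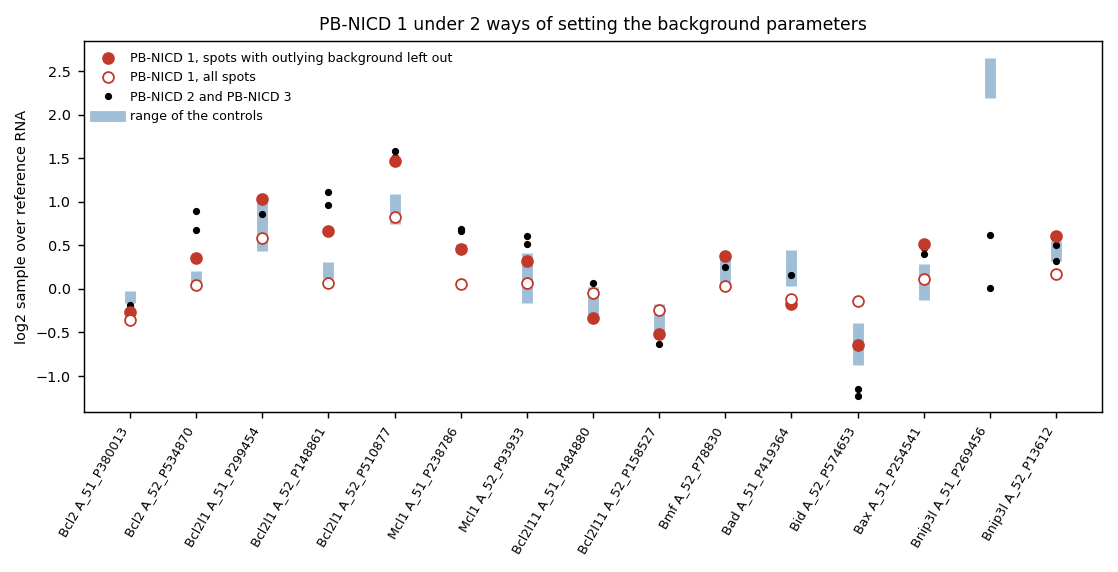
Log2 ratio (vertical axis) of the 15 tested probes on PB-NICD 1 with background parameters from spots without an outlying background (filled red) and from all spots (open red), beside PB-NICD 2 and PB-NICD 3 (black) and the range of the controls (blue bars). With all spots PB-NICD 1 reads 0.07 for Bcl2l1 A_52_P148861, below every control, and with clean spots 0.67. The first Bnip3l probe has no point for PB-NICD 1.

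Some genes followed the called probes closely over the arrays, by the smallest root mean square difference after each probe was centred on its control mean. Nearest to Bcl2l1 A_52_P148861 were Pigyl, Itm2b and Pdcl3, at 0.05 to 0.08 over 7 arrays among 10579 probes compared. Nearest to Bcl2l1 A_52_P510877 were Ncl, Tkt and Zfand5 (0.06 to 0.07), and nearest to Bcl2 A_52_P534870 were Tbpl1, Kif13a and Tuft1 (0.05 to 0.07). Nearest to Bnip3l A_51_P269456 over its 4 arrays were Khdc1a, Tle6 and Dnajc3 (0.07 to 0.11), which changed by -2.19, -2.17 and -2.28.

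The promoters of Bcl2l1, Bcl2 and Bax are shown because probes of these genes were higher in PB-NICD or, for Bax, stood above all controls, and because Notch acts on promoters through RBPJ. Each is the 250 bases before a start site in RefSeq on GRCm38.p6, read 5′ to 3′ on the gene's strand. Capitals mark the RBPJ core TGGGAA and the NF-kB motif, searched on both strands. The Bcl2 window is chr1:106714291-106714540 (minus strand), the Bcl2l1 window, that of the second of 3 start sites, chr2:152830718-152830967 (minus strand), and the Bax window chr7:45466899-45467148 (minus strand).
Bcl2l1: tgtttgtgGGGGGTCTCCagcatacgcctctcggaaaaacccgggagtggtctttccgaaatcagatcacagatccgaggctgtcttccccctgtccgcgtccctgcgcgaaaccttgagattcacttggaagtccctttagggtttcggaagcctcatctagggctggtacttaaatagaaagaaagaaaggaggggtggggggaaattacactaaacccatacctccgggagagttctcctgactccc
Bcl2: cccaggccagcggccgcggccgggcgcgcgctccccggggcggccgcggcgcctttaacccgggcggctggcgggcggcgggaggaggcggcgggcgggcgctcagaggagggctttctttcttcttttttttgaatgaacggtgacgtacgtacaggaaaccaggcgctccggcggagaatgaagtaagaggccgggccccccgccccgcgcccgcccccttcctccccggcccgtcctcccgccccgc
Bax: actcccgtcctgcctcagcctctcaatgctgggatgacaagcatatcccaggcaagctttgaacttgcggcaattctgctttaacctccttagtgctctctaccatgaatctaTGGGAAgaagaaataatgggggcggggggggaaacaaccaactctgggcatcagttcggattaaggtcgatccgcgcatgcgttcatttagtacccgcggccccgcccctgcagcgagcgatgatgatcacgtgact

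RefSeq gave 15 such windows for 9 of the 10 genes and Bnip3l was not among them. The RBPJ core was found in windows of Bmf, Bad and Bax, 4 of the 15, while 21.6% of all 32851 promoters of this length hold it. In the Bax window it begins 137 bases before the start site. It was not found in these windows of Bcl2 or Bcl2l1. The NF-kB motif was found in 1 of the 15 windows, while 7.25% of all promoters hold it. This was the Bcl2l1 window printed above, where the motif begins 242 bases before the start. The windows of the other Bcl2l1 start sites, not printed, do not hold it. The hypoxia core ACGTG was found in windows of Bax and Bnip3, and 16.6% of all promoters hold it. A match is a description of letters and not a binding site.

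Around the 10 genes, 7 lists of neighbouring pathways held 135 tested genes, of which 22 had a called probe, 11 higher and 11 lower in PB-NICD (16.3%, beside 10.9% of all named genes). For 11 of these 22 genes another probe was tested, and the values below are those of the called probe with the lowest p. A list that joined other Bcl2 family members with Bnip1, Bnip2 and Bnipl, which are not of the family, had 2 of 11 genes higher. None was lower, and the median change was 0.04 over 14 probes. The genes called higher were Bik, a BH3-only protein (0.74 ± 0.19, adjusted p = 0.0389), and Bnipl, a relative of Bnip2 (0.84 ± 0.16, adjusted p = 0.0176). The call of Bik was lost on leaving out any of 5 arrays (PB-NICD 2 or 3, control 1, 2 or 4), and that of Bnipl on leaving out control 2.

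Death receptors and their adaptors had 2 of 12 genes higher and none lower, with a median of 0.06, and -0.01 against the median of all probes under median centring. Tnfrsf21, death receptor 6, averaged 3.09 ± 0.58 (SD, n = 3) in PB-NICD and 1.33 ± 0.30 (SD, n = 4) in control, a change of 1.76 (adjusted p = 0.00211), and its second probe changed by 1.77. Tnfsf10, the death ligand TRAIL, changed by 0.81 (adjusted p = 0.00522), and by -0.08 against the median of all probes under median centring. Cflar, which blocks the receptors' signal, did not pass by any of its 4 probes. Among caspases, the apoptosome and the inhibitors of apoptosis, 1 of 19 genes was higher and 1 lower, with a median of -0.04. Casp2, an initiator caspase, changed by 0.48 (adjusted p = 0.0381) and Casp6, an executioner, by -0.51 (adjusted p = 0.0426), and each call was lost on leaving out any of 6 of the 7 arrays.

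In anoikis and matrix attachment signalling, 2 of 28 genes were higher and 2 lower, with a median of -0.13, which turned to 0.08 against the median of all probes under median centring. Egfr, the epidermal growth factor receptor, averaged 0.81 ± 0.05 (SD, n = 3) in PB-NICD and -0.05 ± 0.04 (SD, n = 3) in control, a change of 0.85 (adjusted p = 0.00172), and 2 more of its 4 probes were called at 0.51 and 0.72, though not when PB-NICD 2 was left out. Igf1r, a growth factor receptor that feeds survival signals to Akt, changed by 0.62 (adjusted p = 0.00794), while its other probes gave 0.29 and 0.13. The integrin subunits Itga3 (-0.72, adjusted p = 0.00179) and Itga6 (-0.55, adjusted p = 0.0231), which bind laminin of the basement membrane, were lower, and Itga6 lost its call on leaving out PB-NICD 2 or 3. Against the median of all probes under median centring they stood at -0.38 and -0.23, not called.

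Binding partners and regulators of BH3-only proteins had 2 of 31 genes higher and 2 lower, with a median of -0.09, and 0.06 against the median of all probes under median centring. Sfn, the 14-3-3 protein sigma, changed by 1.25 (adjusted p = 0.000370) by 1 probe and by 0.07 by the other. Trp53 changed by 0.51 (adjusted p = 0.0178) by 1 probe, a call lost on leaving out PB-NICD 1 or 2, and by -0.0056 by the other. Ppp3ca, the catalytic subunit of calcineurin, changed by -0.85 (adjusted p = 0.0254), and Dynll1, a dynein light chain that binds Bim, by -0.58 (adjusted p = 0.0415), and by 0.04 against the median of all probes under median centring. The call of Ppp3ca was lost on leaving out any of 4 arrays and that of Dynll1 any of 5, PB-NICD 1 and 2 among them for both.

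Mitophagy and autophagy partners of Bnip3 and Bnip3l had 1 of 19 genes higher and 2 lower, with a median of -0.12, and 0.01 against the median of all probes under median centring. Gabarap, an autophagosome protein that Bnip3l binds, changed by -0.64 (adjusted p = 0.00585) and by -0.57 on its other probe. The cargo receptor Sqstm1 changed by -0.67 (adjusted p = 0.0451). The kinase Ulk1 changed by 0.69 (adjusted p = 0.00569) by 1 probe and by 0.0092 by the other. Hypoxia-responsive genes had 1 of 15 higher and 4 lower, with a median of -0.23, and -0.04 against the median of all probes under median centring. The glucose transporter Slc2a1 (-0.74), the collagen hydroxylase P4ha1 (-0.73), the stress gene Ddit4 (-0.82) and the mitochondrial protein Higd1a (-0.46 by 1 probe, 0.09 by the other) were lower, and the demethylase Kdm3a was higher (0.90). Against the median of all probes under median centring, Gabarap stood at -0.22, Sqstm1 at -0.18 and Higd1a at -0.03, not called. Over 25 alternatives, Slc2a1 was called in 21, P4ha1 in 20 and Ddit4 in 18. Their smallest changes there were -0.10, -0.13 and -0.12. Sqstm1 lost its call on leaving out PB-NICD 2 or control 1, Ddit4 any of 4 arrays and Higd1a any of 5, PB-NICD 1 and 2 among them for both.

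Markers of cell types moved beside the members. Basal epithelial markers had 4 of 7 genes lower and none higher, with Krt5 at -1.74 (adjusted p = 0.000172), Krt15 at -1.17, Lgals7 at -1.31 and Dst at -0.50. Set against the control mean, the list's median per array was -0.41, -0.71 and -0.40 in PB-NICD, against -0.07 to 0.05 in control. Of luminal markers 2 of 10 were lower, Tmprss2 (-1.32) and Cd24a, of smooth muscle markers 1 of 9, Tagln (-0.65), and of endothelial markers 1 of 4, Emcn (-0.81). Of urothelial markers 1 of 3 was higher, Upk3a (5.11, from 2 arrays in each group). The median change of the 3 urothelial probes was 0.0049, and it was 0.47 over 6 probes with outlier spots kept. Whether the rise was shared by the list is therefore not settled. Dst, Tagln and Emcn each lost the call on leaving out PB-NICD 1, 2 or 3, while Krt5, Krt15 and Lgals7 kept it without any 1 array. None of the 7 fibroblast, 7 lymphocyte, 6 myeloid or 4 red blood cell markers tested was called. Of all named genes 10.9% had a called probe, 4.61% higher and 6.33% lower. Median changes were -0.37 for smooth muscle, -0.34 for red blood cell and -0.22 for fibroblast probes, beside -0.02 for all probes. They were -0.07 for lymphocyte, -0.04 for myeloid, -0.02 for endothelial and 0.05 for luminal probes. Under median centring smooth muscle stood at 0.01, red blood cell at -0.24 and fibroblast at -0.04 against the median of all probes. The part of cell composition in the results of the Bcl2 family was not tested.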

How the data were processed

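Prostate RNA of 3 PB-NICD and 4 control samples was labelled with Alexa Fluor 647 (red) and the reference RNA with Alexa Fluor 555 (green), per the labels, with no dye swap. Intensity values were read with Agilent Feature Extraction 10.7.3.1, per the file headers; the deposited median intensity of spots and local background was used, unnormalized. The LogRatio column (log10 of the processed red signal over the green one, per the file headers) served as an alternative on a log2 scale. The authors' deposited value table behaves as log2 ratios with column medians near 0; its normalization is not stated by the labels, and after centring each probe its columns correlated with their own arrays at 0.510 to 0.712 and with any other array at 0.358 at most. Flags of 0 or 1 mark spots well above background, saturated (none was) or outlying.

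Background was corrected by normexp (offset 50) and ratios by loess within each array (limma 3.58.1, R 4.3.3), control spots at weight 0. Model parameters came from spots whose local background was not marked as an outlier, a choice made after the data were seen; the version with all spots is an added alternative. Outlier spots were left out and spots of a probe averaged. A probe was tested if well above background on at least 3 arrays with at least 2 values in each group. Each of 20895 probes was fitted by lmFit and eBayes with group as the term, two-sided, Benjamini-Hochberg, threshold 0.05. The code was tested on simulated data. The offset draws dim ratios together, and the 7 arrays limit the precision.

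Probes were named through their accessions in the RefSeq table of GRCm38.p6, which matched 24375 of 41174 probes; 1 listed name had no match. The named genes were all members by every probe, each called gene of 7 pathway lists (at most 8 a list), Notch1 as a check, and the 3 genes nearest to each called probe. The members and lists were chosen with earlier results of these data known. Replicate numbers were checked as pairs: deviations of same-numbered arrays correlated at 0.34, -0.24 and 0.10. Over all pairs of a PB-NICD and a control array, those on the same slide correlated at 0.10 to 0.37 and those on different slides at -0.39 to -0.16. The check therefore follows the slide and cannot decide whether the numbers pair the samples. The main fit has no term for slide. Alternatives covered background, scaling, filters, outliers, slide, replicate block, value table and leaving out each array.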

Additional observations from a re-analysis of the deposited data

How the results depend on the processing

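The calls of the 4 probes held to different degrees. Over 25 alternatives, Bnip3l A_51_P269456 was called in each of the 20 that gave it a value (in 7 of them with an identical change), Bcl2l1 A_52_P148861 in 20 of 23, Bcl2l1 A_52_P510877 in 19 of 24 and Bcl2 A_52_P534870 in 13 of 23, and none of the 4 changed sign, though against the all-probe median under median centring Bcl2l1 A_52_P148861 stood at -0.10 and Bcl2 A_52_P534870 at -0.11. The count of called member probes was 7 under median centring, 2 in the sample channel alone, 2 where every array had to be well above background, 1 with the brightest probe of each gene, 0 within slide 1 and 1 with background parameters from all spots, an alternative chosen after seeing the data. Plain subtraction of the background, also added then, left 4. The main fit tested 15 member probes. Only 10 were tested where every array had to be well above background, 9 with the brightest probe of each gene and 14 within slide 1. A lower count there is therefore not a count of lost calls alone. Leaving out 1 array at a time gave 1 to 4 called member probes, of 9 (without PB-NICD 3) to 15 (without control 1) tested. The count was 1 without PB-NICD 2 and 2 without PB-NICD 3, control 2 or control 4, where Bnip3l A_51_P269456 could not be tested. Of all probes, 865 to 1824 were called on leaving out 1 array, 1052, 865 and 1116 without PB-NICD 1, PB-NICD 2 and PB-NICD 3. The count over all probes was 5132 under median centring (93.0% of them higher, against 43.8%), 1054 in the sample channel alone (54.8% higher), 1063 within slide 1, 2635 with a fixed block for slide, 4180 in the authors' deposited table and 493 with parameters from all spots (15.6% higher). The replicate block, whose numbers are not known to pair the samples, gave 3 member probes and 1398 of all, with Bcl2 A_52_P534870 at 0.54 (adjusted p = 0.0676).

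Sign changes occurred at probes not called, and the cause was not tested. Bcl2l11 A_51_P484880 read -0.022 with no background subtraction, -0.24 in the sample channel and -0.32 within slide 1, and -0.032 to 0.16 on leaving out 1 array, the lowest without control 3. Bmf A_52_P78830 read -0.023 with no background subtraction, -0.42 with processed signals, -0.56 under median centring, -0.026 with outlier spots kept, -0.0023 within slide 2 and -0.075 with parameters from all spots. Bcl2 A_51_P380013 read 0.065 with processed signals, 0.70 under median centring and 0.20 in the sample channel. Median centring also gave 0.12 for Bad and 0.30 for Bcl2l11 A_52_P158527. These values include the shift of all probes by 0.25, without which Bad stood at -0.13 and Bcl2l11 A_52_P158527 at 0.05. Mcl1 A_51_P238786 read -0.023 within slide 1, and Bnip3l A_52_P13612 read -0.028 within slide 2 and -0.067 with parameters from all spots. Dim signal limits Bmf A_52_P78830 and A_52_P384394, Bcl2l11 A_51_P484880, Bid A_52_P574653 and the 10-spot Bcl2 and Bcl2l1 probes, where differences are compressed by the offset.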
